A study of Mus musculus with 2 samples.

Results

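Mir378a, a microRNA gene in the first intron of the coactivator gene Ppargc1b, is 1 of the 2202 genes listed in the miRNA counts of these libraries. All are called miRNA genes below, though some, such as Snord43 and n-TSaga9, carry symbols that do not name a miRNA. Mir378a was chosen by its read count on its own strand, the highest of all listed genes in both libraries, so its level and rank are descriptions and carry no test. The libraries hold RNA under 30 nucleotides, taken from the hearts of male B6CASTF1/J mice, first-generation hybrids of C57BL/6J with the wild-derived CAST strain, and no treatment is labelled. The age label gives 25 days, while a second label attaches months to the same number. The 2 libraries form 1 group, so the values below are given for each library and as a mean ± SD, and the only difference that can be measured is the one between them. The animals carry separate numbers but a single donor identifier, so the spread between the libraries may be partly technical.

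MicroRNAs are cut from hairpin transcripts and guide repressor proteins to messenger RNAs through a short seed at their 5′ end. Mir378a is known as the miRNA that is transcribed together with Ppargc1b (also called PGC-1β), which drives genes of mitochondrial energy production with the estrogen-related receptors. It has been studied in heart muscle, skeletal muscle and brown fat for its effects on energy use and on growth signalling. The family has further genes at other loci, and the mature sequences are shown for the 2 whose hairpins share no run of 20 bases with that of Mir378a. They come from RefSeq on GRCm38.p6, with the seed, bases 2 to 8, in capitals.
miR-378d: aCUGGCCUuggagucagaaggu
miR-378b: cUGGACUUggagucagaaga
The miR-378d sequence lies at chr10:126710355-126710376 on the minus strand and the miR-378b sequence at chr11:88352839-88352858 on the plus strand. Their seeds differ from each other, and no other entry among the 1679 mature names of the table has either one. Mir378a was not among the entries matched, so its seed was not compared with them. The letters of Mir378a and of Mir378c, whose hairpin holds a run of at least 20 bases of the Mir378a hairpin, are not printed here.

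In these hearts Mir378a supplied 17.2 ± 0.461% of the reads assigned to a miRNA gene (SD, n = 2). Replicate 1 held 833793 Mir378a reads of 4930853 assigned reads, and replicate 2 held 918427 of 5229819. Scaled to a total of 1000000 assigned reads (CPM), the Mir378a level stood at 169097 CPM in the first library and 175614 CPM in the second, or 172355 ± 4608 CPM (SD, n = 2). The libraries lay close together, and Mir378a ranked 1 in each. As a share of assigned reads this was 16.9% in replicate 1, with both bounds of the exact Clopper-Pearson 95% interval at 16.9% after rounding, and 17.6% in replicate 2, with bounds of 17.5 and 17.6%. These intervals, and the other intervals and limits below, cover counting error only. RNA under 30 nucleotides was selected, so 1 read can cover a whole mature product, and counts were not divided by the length of the hairpin. Read lengths were not seen, so whole products and fragments cannot be told apart. Levels of different miRNAs still carry the unequal efficiency of ligation in such libraries, which was not measured here.

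Counted against all reads of a library, Mir378a held 6.31% in replicate 1 and 6.39% in replicate 2. That total includes unmapped reads, 1986008 in replicate 1 and 2896550 in replicate 2. The deposited files tally reads placed at several loci apart from every gene. There were 5497619 such reads in replicate 1 and 5375745 in replicate 2, or 6.59 and 5.85 for every Mir378a read. The rank of Mir378a therefore holds for reads assigned to 1 gene, and the order of genes with those reads included was not measured.

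On the mm10 build Mir378a (ENSMUSG00000105200.1) occupies positions 61397835 to 61397900 of chromosome 18 and is read from the minus strand. Its host Ppargc1b spans 61298136 to 61400431 on the same strand and is 102296 bases long. Mir378a sits 2531 bases downstream of the start of the gene, inside intron 1 of all 3 transcripts that GENCODE M21 lists for Ppargc1b. That intron is 76981 bases long in the 12-exon coding transcript and 17766 bases in the 13-exon one. The messenger RNA of Ppargc1b was not measured in these libraries, so the level of the miRNA cannot be set beside that of its host.

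**Figure D1:**
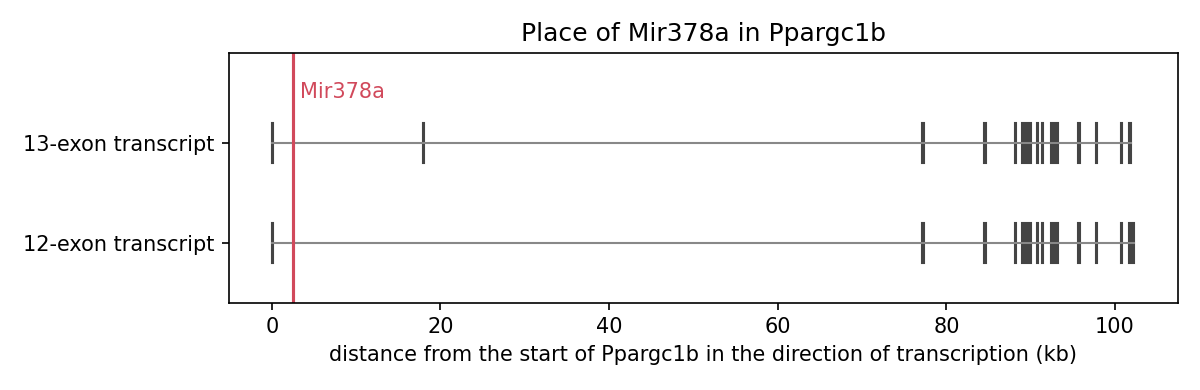
Exons (dark blocks) of the 12-exon and 13-exon coding transcripts of Ppargc1b by distance from the start of the gene in kb, with Mir378a as a red line. The line stands 2531 bases from the start, in the first intron of both transcripts.

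The nearest miRNA genes on the same strand were Mir145a, 249925 bases away, and Mir143, 251296 bases away, both known from smooth muscle. Mir143 was at 31702 ± 4152 CPM (n = 2) and Mir145a at 1534 ± 389 CPM, so Mir378a exceeded Mir143 by 5.88 times in replicate 1 and 5.07 times in replicate 2. No miRNA gene lay closer on that strand, and Mir378a was the only one listed on it within Ppargc1b.

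The gene next in order was Mirlet7i, a let-7 gene known for its rise during differentiation, with 489466 reads in replicate 1 and 461043 in replicate 2. The ratio of Mir378a to Mirlet7i was 1.70 in replicate 1, with an exact 95% interval of 1.70 to 1.71, and 1.99 in replicate 2, with an interval of 1.99 to 2.00. The lead was thus wider in replicate 2, where Mir378a was higher and Mirlet7i lower (99266 CPM against 88157 CPM). Mirlet7g followed at 65188 ± 1327 CPM, the endothelial miRNA Mir126a at 62907 ± 9214 CPM, Mirlet7b at 57677 ± 5280 CPM and Mir23b at 49050 ± 10242 CPM. The lower of the Mir378a levels lay above the higher level of each of these 5 genes. Of the other listed genes, the 2182 lowest genes in replicate 1, and the 2181 lowest in replicate 2, together had no more reads than Mir378a.

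**Figure D2:**
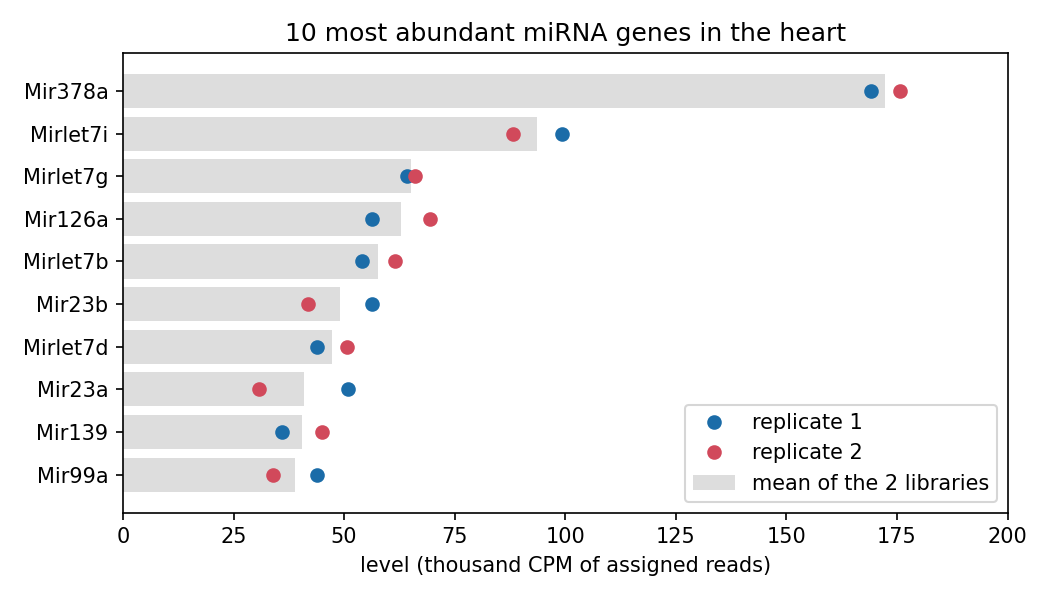
Level in units of 1000 CPM of assigned reads (x axis) of the 10 most abundant miRNA genes, with a grey bar for the mean and a point for each library. Mir378a stands at 169097 and 175614 CPM, and Mirlet7i, the next gene, at 99266 and 88157 CPM.

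Mir378a also led the miRNA genes that lie in an intron of a coding gene on the same strand, of which 741 were listed and 130 were detected, that is, had at least 10 reads in both libraries. These 741 genes held 51.1% of assigned reads in replicate 1 and 51.9% in replicate 2, and Mir378a alone supplied 33.1% and 33.8% of the reads of intronic genes. The intronic genes next in order were Mirlet7g in Wdr82, Mir126a in Egfl7 and Mir23b. Mir126a, at 56392 CPM in the first library and 69422 CPM in the second, was below Mir378a by 3.00 and 2.53 times.

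The other genes of the family were far lower. Mir378d on chromosome 10 had 1294 reads in replicate 1 and 1256 in replicate 2, Mir378c on chromosome 14 had 146 and 191, and Mir378b on chromosome 11 had 64 and 95. Their levels were 251 ± 15.7, 33.1 ± 4.89 and 15.6 ± 3.67 CPM (n = 2). The 3 genes stood in the same order in both libraries without overlap. Their sum was 0.180% of the family's reads in replicate 1, with exact 95% bounds of 0.171 and 0.189%, and 0.168% in replicate 2, with bounds of 0.159 and 0.176%, so 99.8% of the assigned family reads were those of Mir378a in each library.

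**Figure D3:**
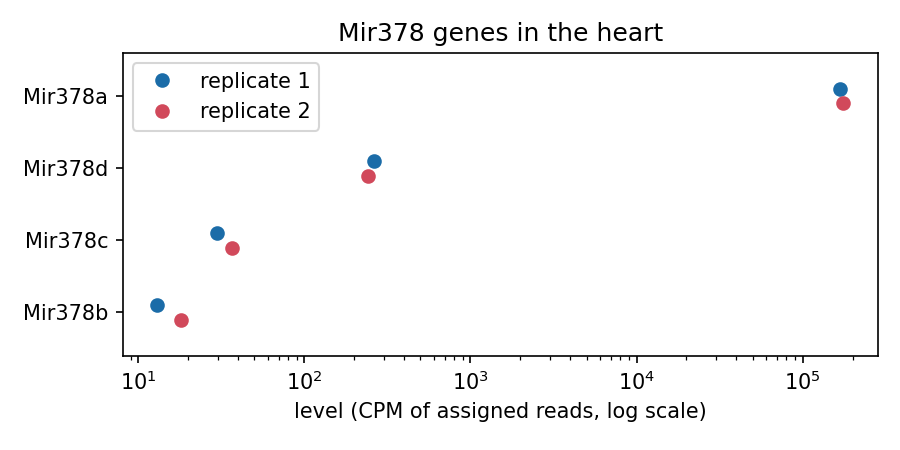
Level in CPM of assigned reads (x axis, log scale) of the 4 Mir378 genes, with a point for each library. Mir378a lies at 172355 CPM on average, against 251, 33.1 and 15.6 CPM for Mir378d, Mir378c and Mir378b.

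This split rests on reads that could be placed at 1 locus. Of the 3 other genes, Mir378c shares a run of at least 20 bases with the Mir378a hairpin, and Mir378d and Mir378b do not. Shorter shared runs were not looked for, and the aligner is not given. How many reads listed for Mir378d and Mir378b came from other genes of the family was not measured. A short read that lies inside the shared run would be placed at several loci and appear in neither gene, so Mir378a and Mir378c may both be listed below their true level. How many of the reads placed at several loci belong to the family was not measured. Across the 1087 genes that share 20 bases with another locus, which held 30.4% of assigned reads in replicate 1 and 28.0% in replicate 2, Mir378a supplied 55.6% and 62.7% of the reads.

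The count of Mir378a depended wholly on the strand column read. Each file gives counts without strand, on the strand of the gene and on the opposite strand. In the unstranded column Mir378a was listed at 0 in both libraries, and on the opposite strand it was also at 0, which allows up to 3 reads per library, or 0.000360% of its own-strand reads in replicate 1 and 0.000327% in replicate 2. The annotation has a predicted miRNA gene, Gm25301, on the plus strand from 61397813 to 61397925, which covers the whole of Mir378a. Gm25301 itself had 4 reads on its own strand in replicate 1 and 0 in replicate 2, while its opposite-strand column held 833793 and 918427, the same counts as Mir378a. Since Mir378a had 0 reads on the plus strand, the 4 reads of Gm25301 lay outside the Mir378a hairpin.

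Without strand the files tally 1342888 reads in replicate 1 and 1438359 in replicate 2 as ambiguous. The Mir378a count equals 62.1% and 63.9% of them, and it is the largest of 64 miRNA genes with a partner on the other strand. Of the 38 such genes with own-strand reads in replicate 1, 35 were at 0 in the unstranded column, and in replicate 2 it was 34 of 36. Mir126a, the next of these genes, had 278061 own-strand reads and 13 unstranded ones in replicate 1, and 363065 and 17 in replicate 2. Mir191 (54920 and 59583 reads on its own strand) and Mir451a (96105 and 5159) were at 0 without strand in both libraries. In the unstranded column the top rank passed to Mirlet7i, with 13.6% of the reads assigned in that column in replicate 1 and 12.2% in replicate 2.

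**Figure D4:**
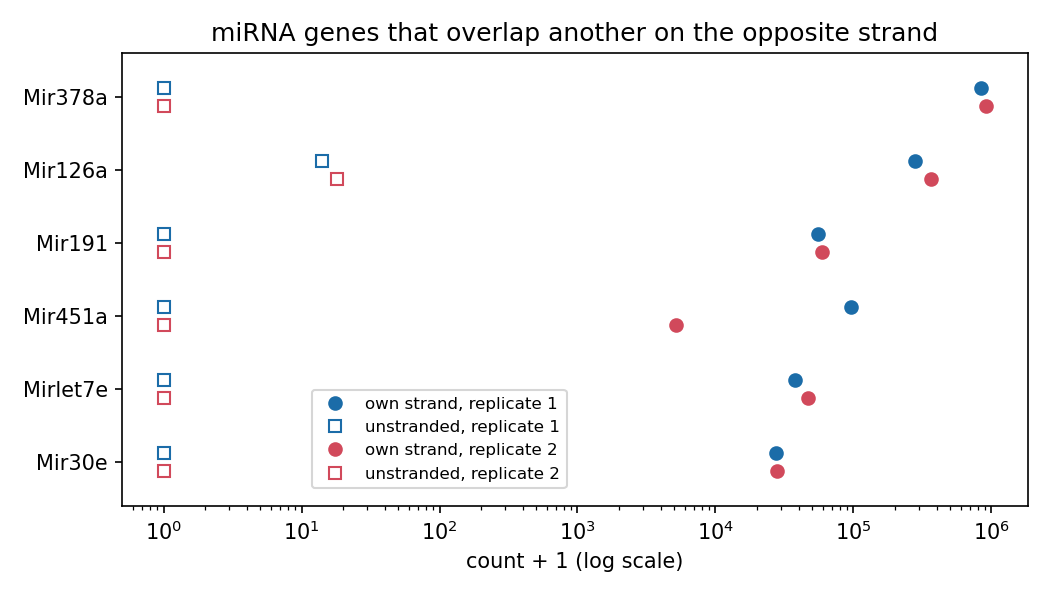
Count plus 1 (x axis, log scale) of the 6 most abundant miRNA genes with a partner on the other strand, in the own-strand column (filled circles) and the unstranded column (open squares) of each library. The own-strand counts of Mir378a, 833793 and 918427, stand against 0 in the unstranded column.

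Between the libraries Mir378a differed little. It was 1.04-fold higher in replicate 2 (exact 95% bounds both 1.04 after rounding), a log2 ratio of 0.05 that became 0.01 with TMM and 0.14 with DESeq2 size factors, where the SD of the log2 ratio over the 356 detected genes was 0.86 and their median 0.02. The difference exceeded counting error (exact conditional binomial test with Benjamini-Hochberg adjustment over the detected genes, two-sided, adjusted p = 4.36e-137). That test compares these 2 libraries only, and it called 63.5% of the detected genes, 117 higher and 109 lower in replicate 2. The balance moved with the scaling, to 106 higher and 115 lower with TMM and 131 higher and 90 lower with DESeq2 size factors. Those factors were 1 for both libraries, so they left the read counts unscaled although replicate 2 had more assigned reads. With 833793 and 918427 reads a small change passes the test, so the call says little about the size. By size, with scaling to total assigned reads, 24 of the 356 genes (6.74%) had a smaller absolute log2 ratio than Mir378a. Among the 20 most abundant genes 2 had a smaller one, their median absolute log2 ratio was 0.35, and their ratios ran from -4.30 for Mir451a to 1.26 for Mir22. The place of Mir378a by size was not counted under the other scalings. The 356 genes include some near the minimum of 10 reads, whose ratios carry more counting error.

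The other Mir378 genes had larger absolute ratios than Mir378a on this scale, though with DESeq2 size factors, which were 1 for both libraries, Mir378d was at -0.04 and Mir378a at 0.14. Mir378d was lower in replicate 2 (log2 ratio -0.13, adjusted p = 0.0402, exact test), while Mir378c and Mir378b, at log2 ratios of 0.30 and 0.48, did not pass the test. With those size factors, which leave the deeper replicate 2 unscaled, Mir378d lost its call (adjusted p = 0.562, exact test). On the same unscaled counts Mir378c and Mir378b were called higher (0.39 and 0.57). Each of the 3 genes kept its direction under the 5 other scalings tried, but none kept its side of the threshold in all of them. The 5 genes of at least 1000 CPM whose log2 ratio lay nearest to that of Mir378a were Mir324 (0.06), Mirlet7g (0.04), Mir191 (0.03), Mir30a (0.08) and Mir484 (0.08), out of 71 genes at that level. With TMM the signs of Mirlet7g (-0.0049) and Mir191 (-0.014) were negative, and neither was called. Likeness here rests on 2 libraries and means only that the ratio to Mir378a was nearly the same in both. Mir378a exceeded Mirlet7g by 2.63 times in replicate 1 and 2.66 times in replicate 2.

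**Figure D5:**
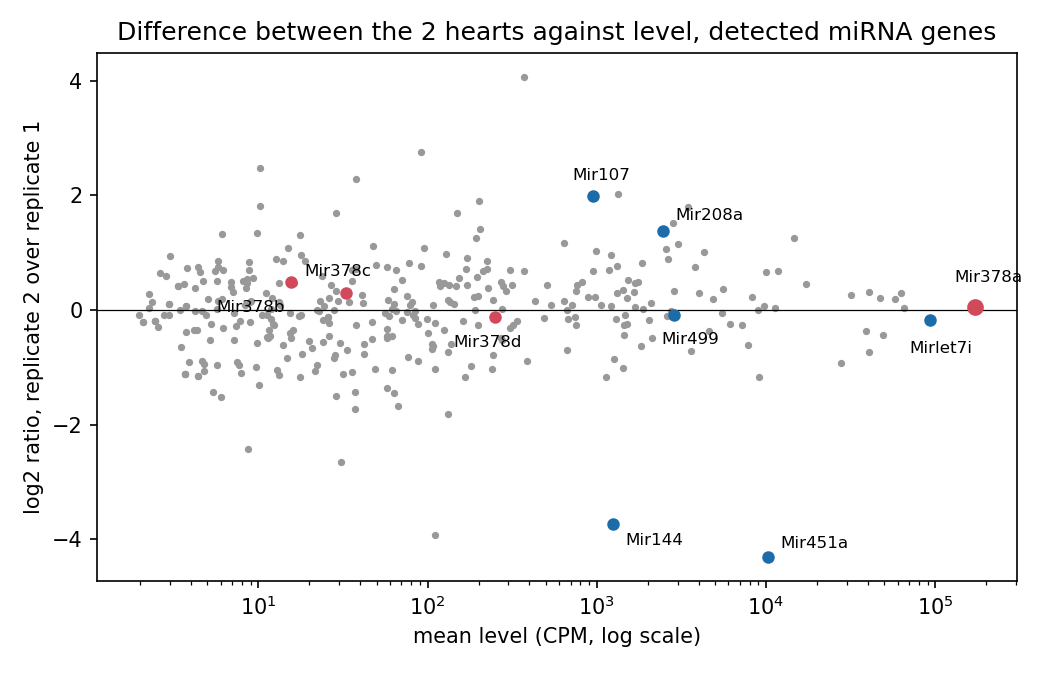
Log2 ratio of replicate 2 over replicate 1 (y axis) against mean level in CPM (x axis, log scale) for the 356 detected miRNA genes, with the Mir378 genes in red and other named genes in blue. Mir378a lies at the right edge near 0 (0.05), while Mir451a and Mir144 lie at -4.30 and -3.73.

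The labelled tissue was checked against marker miRNAs. The cardiomyocyte genes in myosin introns were present in both libraries: Mir499 in Myh7b at 2933 and 2758 CPM, Mir208a in Myh6 at 1361 and 3562 CPM, and Mir208b in Myh7 at 191 and 192 CPM. Mir378a was 57.6 times as abundant as Mir499 in replicate 1 and 63.7 times in replicate 2. Against Mir208a the ratio was 124 in replicate 1 and 49.3 in replicate 2, since Mir208a itself differed between the libraries. Mir1a-1, Mir1a-2, Mir133a-1 and Mir133a-2, also markers of heart muscle, share bases with other loci and had 3 to 203 reads. Their reads at more than 1 locus are in no count, so these 4 genes may be listed far too low. Whether any of them would stand near Mir378a with those reads included was not measured.

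Markers of other cell types that could be in the tissue were read beside Mir378a. Ppargc1b is also known from skeletal muscle and brown fat. The skeletal muscle gene Mir206 had 34 and 29 reads (6.22 ± 0.955 CPM), and with Mir133b the 2 markers had sums of 8.31 CPM in replicate 1 and 7.46 CPM in replicate 2. Mir133b, like the brown fat gene Mir365-1 below, shares bases with other loci. Reads of either gene at more than 1 locus are in no count, so their levels may be listed too low. For each Mir206 read there were 24523 and 31670 Mir378a reads. The 5 brown fat markers summed to 748 CPM in the first library and 2335 CPM in the second, led by Mir455, which is also made in mesenchymal cells, at 527 and 2136 CPM. Mir193b, studied in brown fat formation, was at 140 and 110 CPM, Mir203 at 69.4 and 82.6 CPM, and Mir365-1 and Mir182 had 5 to 53 reads. Apart from Mir455 these genes had no common direction between the libraries.

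The red cell genes Mir451a (log2 ratio -4.30) and Mir144 (-3.73) were lower in replicate 2, with a summed level of 21812 CPM in the first library and 1161 CPM in the second. With their reads left out of the totals the log2 ratio of Mir378a was 0.02, against 0.05 with them. Endothelial markers (4 genes, led by Mir126a) summed to 57798 and 72018 CPM. Smooth muscle and fibroblast markers (6 genes, with Mir199a-1 at 0) summed to 33441 and 45971 CPM. The 5 leukocyte markers, with Mir142b at 0, summed to 4788 and 5126 CPM. Liver Mir122 had 126 and 84 reads, and of the 6 neuron markers Mir124a-1, Mir124a-2, Mir124a-3 and Mir9-2 had 0 reads in both libraries. All 6 neuron markers, and Mir199a-1, share bases with other loci. Their reads at more than 1 locus are in no count, so these values of 0 cannot show absence. The part of these cell types in the Mir378a level was not tested, and in whole tissue fewer cells of a type and less RNA per cell cannot be told apart.

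Other miRNAs hosted by genes of energy or lipid metabolism were low beside Mir378a. Mir107 in Pank1, a gene of coenzyme A synthesis, had 1896 reads in replicate 1 and 7965 in replicate 2 and was higher in replicate 2 (log2 ratio 1.99). Mir103-2 in Pank2 had 22 and 84 reads and was also higher (1.82). Mir33 in Srebf2, the regulator of cholesterol synthesis, had 28 and 42 reads and was not called, and Mir103-1 in Pank3 had 0 and 14. These 4 genes together came to 395 CPM in the first library and 1550 CPM in the second, and Mir378a made up 99.8% and 99.1% of the list. Mir107, Mir103-1 and Mir103-2 share bases with one another, and their reads at more than 1 locus are in no count. Of the 3 detected genes besides Mir378a, 2 were thus called, both higher in replicate 2, where the test called 63.5% of all detected genes, so the count says nothing particular to this list.

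Of 26 miRNAs studied in mitochondria, lipid metabolism or brown fat, 25 were listed and 20 detected, of which 13 were higher and 5 lower in replicate 2 and 2 were not called, where the test called 63.5% of all detected genes. Calls depend on read number: with a count minimum of 100 the test called 180 of 222 genes. The count is therefore not read as particular to this list. The median log2 ratio of its detected genes was 0.40, against 0.02 over all detected genes. That difference was not tested, and the list holds several genes of the same families, such as Mir181 and Mir30. Mir23a, with 251446 and 160559 reads, was the most abundant and was lower in replicate 2 (log2 ratio -0.73). Mir27b (1.02), Mir34a (1.51) and Mir455 (2.02) were higher, and Mir155 was at 2767 and 2751 CPM and was not called. With TMM scaling Mir155 was called lower (-0.05), and with DESeq2 size factors, which left the counts unscaled, higher (0.08). Mir210, which acts on iron-sulphur proteins of mitochondria under low oxygen, was at 240 and 322 CPM. Mir378a lay above each of these genes in both libraries, by 3.32 times over Mir23a in replicate 1 and 5.72 times in replicate 2.

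The hairpin of Mir378a was short and folded tightly for its length. It has 66 bases in GENCODE M21, against a median of 83 over the 356 detected genes, and 34 of these (9.55%) were shorter. Its GC content of 54.5% lay within the quartiles of detected genes (44.6 to 57.6%). The predicted folding energy was -38.5 kcal/mol, near the median of -36.8. Per base it was -0.58 against a median of -0.44, and 26 of the 356 genes (7.30%) were lower. These features describe the annotated hairpins, and no relation to level was tested.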

How the data were processed

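The 2 microRNA libraries of heart tissue were counted per gene. The authors deposited whole-number read counts per miRNA gene in 3 columns (unstranded, own strand, opposite strand) with 4 entries for unassigned reads. Per the accompanying text of the deposit, the build was mm10 and the annotation GENCODE M21. Which aligner, trimming and counter were used is not given in the sources used here. The own-strand column was scaled to its total without the 4 entries (CPM). Replicate 1 held 13210462 reads and replicate 2 held 14363882, of which 37.3% and 36.4% were assigned, and 1 read is 0.203 and 0.191 CPM. Gene symbols, hosts and hairpins came from GENCODE M21, and mature sequences from RefSeq, where 3 Mir378 genes matched.

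Genes with at least 10 reads in both libraries were compared by an exact conditional binomial test (scipy 1.17.1) with Benjamini-Hochberg adjustment at 0.05, since 1 group leaves no contrast for edgeR's quasi-likelihood test. Log2 ratios use a pseudocount of 0.5 reads. Shared bases are runs of 20 in another hairpin, on either strand. Folding used RNAfold 2.7.2. Alternatives used TMM (edgeR 4.0.16), DESeq2 1.42.0 size factors, other totals, columns, filters and each library alone. The gene and all lists were chosen with earlier results of these data known. Named genes are the Mir378 genes, genes overlapping Mir378a, the 5 next by level, the 5 nearest by ratio, the top 3 overlapping genes and up to 4 members of each list. Others, such as Mir22 and the nearest genes on the chromosome, were named after their values were seen.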

Additional observations from a re-analysis of the deposited data

Results flagged for a closer look

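Signal lay in reads that belong to no gene's count. Reads placed at several loci numbered 5497619 in replicate 1 and 5375745 in replicate 2, and reads outside miRNA genes numbered 795982 and 861768. The files do not say where these reads lie, so how many came from the Mir378 family was not tested.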

How the results depend on the processing

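The level of Mir378a, 172355 CPM of assigned reads, became 63528 CPM against all reads, 83276 CPM with reads placed at several loci in the total and 208267 CPM with Mir378a left out of the total, and 0 in the unstranded and in the opposite-strand column. These shifts follow from the totals and columns themselves. In the unstranded column its rank was 729, shared by all genes at 0, and the summed level of the 3 other Mir378 genes was 413 CPM against 299.9 CPM, because that column assigns fewer reads. TMM gave 172325 CPM and DESeq2 size factors 172526 CPM. With either library left out the level was 169097 to 175614 CPM, the rank 1 and the ratio to Mirlet7i 1.70 to 1.99. The log2 ratio between the libraries was 0.01 with TMM (adjusted p = 0.000419, exact binomial test) and 0.14 with DESeq2 size factors, which were 1 for both libraries, and was positive and called under each scaling tried. Genes differing between the libraries numbered 226 of 356 tested, and 221 of 356 with TMM and with DESeq2 size factors. They numbered 180 of 222 with a count minimum of 100 and 242 of 754 without a filter. The share called thus moved with the filter. Of the genes nearest by ratio, Mirlet7g was at -0.0049 with TMM, and Mir191 at -0.014 with TMM and -0.0032 against all reads, none of them called. Mir378d also lost its call with Mir378a left out of the total (-0.12, adjusted p = 0.0665, exact binomial test). Mir499 lost its call with DESeq2 size factors. Mir203, Mir324 and Mir484 lost theirs with TMM, against all reads and without Mir451a and Mir144, Mirlet7g against all reads, and Mir191 without Mir451a and Mir144. Each scaling shifts the log2 ratios of all genes by the same amount, so genes near 0 or near the threshold change sides. Leaving Mir451a and Mir144 out of the totals, and the rescaling of 25 genes other than Mir378a, were chosen after seeing the data. With 2 libraries the spread has 1 degree of freedom, and depth limits the ratios of genes with few reads, such as Mir378b, Mir33 and Mir206.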
